A study of Mus musculus with 2 samples.

Results

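The cells described here are intermediate microglia, which stand between homeostatic cells and disease-associated microglia (DAM) by their counts of a few DAM genes. A cell was a member when its counts of *Cst7*, *Lpl*, *Spp1* and *Itgax* summed to 3 to 7. It also needed at least 1 count of *P2ry12*, under 10 summed counts of the MHC class II genes *Cd74*, *H2-Aa*, *H2-Ab1* and *H2-Eb1*, under 5 summed counts of the border-associated macrophage (BAM) genes *Mrc1*, *Pf4*, *Ms4a7*, *Cd163* and *Cbr2*, and under 100 counts of *Ttr*. By this rule 961 of 42766 cells were intermediate, 343 of 18374 VEH cells and 618 of 24392 LEM cells. They were set beside 14775 VEH and 18490 LEM cells with a sum of 0, and beside 181 VEH and 298 LEM cells with a sum of 10 or more, chosen with the same other limits.

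Microglia were sorted as CD45lo CD11b+ cells from the cortex and hippocampus of one hemisphere of PSAPP mice, which carry APPswe and PS1.delta.E9 transgenes for mutant human amyloid precursor protein and presenilin and deposit amyloid plaques. All mice of both groups carried the transgenes, so no cells of mice without plaques were compared. Lemborexant (LEM, 30 mg/kg/day), a blocker of both orexin receptors that is used as a sleep drug, or vehicle (VEH) was given for 30 days from 9 months to 10 months of age. Each treatment was 1 library of 5 pooled mice of both sexes, so nothing is tested across libraries and every LEM to VEH difference is one between 2 pools of mice. Female and male cells of a library, told apart by *Xist* and Y-linked counts, come from different mice and are given as 4 pools in all, without counting as replicates.

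Microglia are the resident macrophages of the brain. In the homeostatic state they express *P2ry12*, a purine receptor with which their processes sense ATP, *Tmem119* and *Cx3cr1*. Near amyloid plaques a share of them takes up the DAM state, in which homeostatic genes go down and genes for lipid handling, lysosomal digestion and adhesion go up. A widely used scheme splits this in stages. Stage 1 genes, such as *Apoe*, *Tyrobp*, *B2m* and *Ctsd*, come up without the lipid receptor TREM2, and stage 2 genes, such as *Axl*, *Csf1* and *Cd9*, need it. The 4 genes of the sum are themselves counted among the late DAM genes, so a cell with stage 1 genes alone could not become a member, and the rule bears on how far stage 2 genes stand from their level in cells with a sum of 0. The levels of both stages are therefore a description of the cells chosen.

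The microglial label held in the data outside the genes of the rule. The 9 microglia markers *Tmem119*, *Cx3cr1*, *Csf1r*, *C1qa*, *C1qb*, *Ctss*, *Sall1*, *Fcrls* and *Siglech* summed to 29838.5 CPM in VEH and 30871.5 CPM in LEM intermediate cells, and every intermediate cell had counts of them. Neuron and neutrophil markers were at 0 counts in both libraries. Across astrocyte, oligodendrocyte, oligodendrocyte precursor, endothelial, pericyte, T and NK cell, B cell and monocyte markers, the summed level of a list lay between 0 and 67.0 CPM. The highest were oligodendrocyte markers, at 56.3 CPM in VEH and 67.0 CPM in LEM. The 5 BAM genes *Lyve1*, *F13a1*, *Cd209f*, *Clec10a* and *Stab1*, which the rule does not use, summed to 62.7 CPM with 4 of 5 genes at 0 in VEH, and to 77.9 CPM with 3 of 5 at 0 in LEM. Choroid plexus genes other than *Ttr* stood at 0.335 CPM and 3.83 CPM. Levels in CPM are a gene's counts summed over a set of cells, scaled to a total of 1000000 counts for all genes of that set.

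Intermediate cells were deeper than the cells with a sum of 0. Their median was 8349 counts in VEH and 8561 in LEM, against 5738 and 5787.5 in cells with a sum of 0 and 11135 and 11128 in cells with a sum of 10 or more. A sum of raw counts takes in deeper cells more often, so values from thinned cells are given beside some of the results. Ratios of single genes are mostly given without thinning. With the rule on thinned counts, 11 of 142 such ratios against cells with a sum of 0 stayed within their counting interval. Scrublet called 13.1% of VEH and 15% of LEM intermediate cells doublets, against 9.44% and 9.20% of cells with a sum of 0. *Xist* together with any Y-linked gene was counted in 11.1% and 12.9% of them, against 4.53% and 6.22%. Without the Scrublet doublets 298 VEH and 525 LEM intermediate cells remained, and without the cells with both sexes' counts 305 and 538. The share of intermediate cells, the counts of genes past the fold and the places of the stage and homeostatic lists are also given without the former. Values per single cell and those of subsets of members were computed with them.

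Free RNA was gauged in the droplets that the *Ttr* limit removed, whose choroid plexus transcript marks another cell type. A sum of 3 to 7 stood in 3 of 49 such VEH droplets (6.12%, exact Clopper-Pearson 95% interval 1.28 to 16.9) and 6 of 143 LEM droplets (4.2%, 1.56 to 8.91), at a median depth of 9338 and 8161 counts. These intervals contain the shares of intermediate cells in the whole libraries. After thinning 1 of 47 and 3 of 136 droplets had such a sum. The droplets held *P2ry12* at 2596 CPM and 2070 CPM, so that microglial RNA was present in them. They therefore do not give the level of a cell type that lacks these genes. How much of a sum of 3 to 7 free RNA supplies was not tested. All intervals here cover counting error only.

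The rule's own genes describe how members were chosen and carry no finding. *Cst7* (chromosome 2, 150570415 to 150578944, forward strand, GRCm38) encodes cystatin F, an inhibitor of lysosomal cysteine proteases. *Lpl* (chromosome 8, 68880491 to 68907448, forward strand) encodes lipoprotein lipase, *Spp1* (chromosome 5, 104435118 to 104441050, forward strand) the secreted protein osteopontin, and *Itgax* (chromosome 7, 128129547 to 128150657, forward strand) the integrin CD11c. *P2ry12* lies on chromosome 3, 59216272 to 59262871, reverse strand. All 5 are annotated as protein-coding genes, and the positions span the whole gene.

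*Cst7* supplied most of the sum in VEH cells. It gave 51.3% of the 4 genes' counts in VEH and 43.5% in LEM intermediate cells, and was present in 79.0% and 66.7% of them. *Itgax* gave 20.0% and 27.6% of the counts, present in 48.1% and 57.9% of cells. *Lpl* gave 19.6% and 19%, present in 43.1% and 36.2%, and *Spp1* gave 9.06% and 9.83%, present in 24.8% and 23.1%. Counts of 2 of the 4 genes were the usual case, in 49.9% of VEH and 46.1% of LEM members. Only 1 of the 4 had a count in 28.9% and 35.6%, and all 4 in 2.62% and 1.29%.

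The members had no gap on either side. At a sum of 2 stood 436 VEH and 760 LEM cells, at 3 the first members, 142 and 293 cells, and at 4 there were 73 and 139. At 7 stood the last members, 31 and 54 cells, followed by 23 and 44 cells at 8. *P2ry12* stood at 4544, 3097 and 2291 CPM in VEH cells with a sum of 0, in intermediate cells and in cells with a sum of 10 or more, and at 4382, 3155 and 2407 CPM in LEM. The remaining limits removed 95 of 438 VEH (21.7%) and 95 of 713 LEM cells (13.3%) with a sum of 3 to 7, most by MHC class II counts, which 86 VEH (19.6%) and 79 LEM cells (11.1%) exceeded.

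Intermediate cells were 1.87% of VEH (1.68 to 2.07) and 2.53% of LEM cells (2.34 to 2.74), a log2 ratio of LEM over VEH of 0.44 (0.25 to 0.64), and of 0.41 (0.20 to 0.62) without the Scrublet doublets. Among female cells the share was 2.15% (122 of 5686) in VEH and 2.87% (241 of 8409) in LEM, a log2 ratio of 0.42 (0.10 to 0.74). Among male cells it was 1.55% (140 of 9025) and 2.09% (235 of 11223), 0.43 (0.12 to 0.75). The LEM share was thus the higher one in both sexes as deposited. When each cell was thinned to 2000 counts and the rule applied to the thinned counts, 232 of 17069 VEH (1.36%) and 333 of 23177 LEM cells (1.44%) met it, and the log2 ratio was 0.080 (-0.17 to 0.33). It was then 0.32 (-0.099 to 0.75) among female and -0.22 (-0.61 to 0.16) among male cells, so that the sexes lay on opposite sides of 0. These intervals cover the counting of cells within 1 library per treatment and say nothing of mice.

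**Figure D1:**
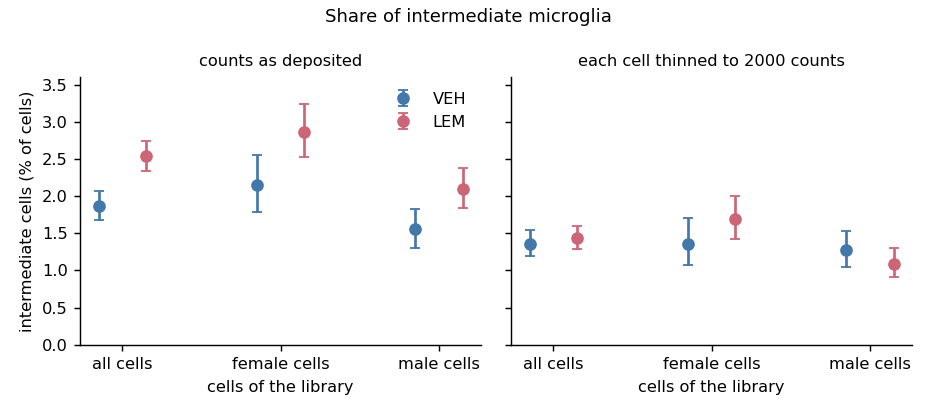
Intermediate cells as a percent of all cells of a library (y axis), in all, female and male cells (x axis) of the VEH (blue) and LEM (red) libraries, with exact 95% Clopper-Pearson intervals, for counts as deposited and for cells thinned to 2000 counts. As deposited the LEM share is the higher one in each column (2.53% against 1.87% in all cells). The intervals of female cells overlap as deposited already, and after thinning those of each column do.

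Of the 4 rule genes *Itgax* moved this ratio most when left out. Without it, with the same limits on the other 3 genes, 267 VEH and 409 LEM cells were intermediate and the log2 ratio was 0.21 (-0.019 to 0.43). Without *Cst7* it was 0.58 (0.34 to 0.83), without *Spp1* 0.46 and without *Lpl* 0.41. With a sum of 4 to 6, 170 VEH and 271 LEM cells were members and it was 0.26 (-0.018 to 0.55). Over all cells that passed the other limits, *Itgax* had a count in 7.98% of VEH and 12.8% of LEM cells as deposited, and in 3.25% and 4.69% after thinning. *Cst7* did so in 7.31% and 8.05% as deposited and 4.45% and 4.31% after thinning. Without the limit on MHC class II counts, an alternative chosen after seeing the data, 429 VEH and 694 LEM cells were intermediate and the log2 ratio was 0.29 (0.11 to 0.46).

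Against cells with a sum of 0, intermediate cells held higher levels of every measured DAM stage 1 gene and nearly every stage 2 gene, and lower levels of a part of the homeostatic genes. With 1 library per treatment a gene was counted as higher or lower when its log2 ratio of CPM was at least 0.5 in size in the VEH and in the LEM library, among genes with a count in at least 10% of the cells of either set. Over all 8509 genes so measured outside the rule, 246 were higher (2.89%) and 163 lower (1.92%) in intermediate cells, and the median log2 ratio was -0.072 in VEH and -0.069 in LEM. Of the 246 higher genes 109 reached 10% of cells in the intermediate set alone, so that the direction of their call was largely set by the filter, and 137 in both sets. Of all 8509 genes 1148 were measured through the intermediate set alone. With the rule applied to cells thinned to 2000 counts, which fewer cells met, 391 genes were higher and 779 lower. Without the Scrublet doublets 298 were higher and 264 lower. Both sets come from the same library and were chosen on counts of the same cells, so these ratios describe the sets and test nothing.

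All 9 stage 1 genes were higher, with a median log2 ratio of 0.76 in VEH and 0.73 in LEM. *Apoe*, the main lipid carrier made by microglia, stood at 919, 2537 and 5579.8 CPM in VEH and at 1569.7, 3569 and 6134 CPM in LEM in cells with a sum of 0, in intermediate cells and in cells with a sum of 10 or more, in that order throughout. Its log2 ratio of intermediate cells over cells with a sum of 0 was 1.46 (1.43 to 1.5) in VEH and 1.19 (1.16 to 1.21) in LEM. By pool it was VEH female 2.09, VEH male 1.45, LEM female 1.56 and LEM male 1.24, so all 4 pools lay on the same side. *Lyz2*, a lysozyme, was the stage 1 gene with the largest ratio, 1.99 in VEH and 1.61 in LEM, at 208, 826 and 1487 CPM in VEH and at 271, 825 and 1641 CPM in LEM.

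*Tyrobp*, the signalling adaptor of TREM2, stood at 2511, 4161 and 7544 CPM in VEH and at 2613, 4017 and 7377 CPM in LEM, and *Ctsb*, a cathepsin protease, at 1959.6, 4340.4 and 6371 CPM in VEH and at 2137, 4268 and 6259 CPM in LEM. Their log2 ratios were 0.73 in VEH and 0.62 in LEM for *Tyrobp* and 1.15 in VEH and 1.0 in LEM for *Ctsb*. *Ctsd*, another cathepsin, was higher by 0.71 in VEH and 0.52 in LEM. *Fth1*, the ferritin heavy chain that stores iron, *Cstb*, an inhibitor of cathepsins, *B2m*, the light chain of MHC class I, and *Timp2*, an inhibitor of metalloproteases, were higher by log2 ratios of 0.51 (*Timp2*, LEM) to 0.98 (*Cstb*, VEH).

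Of the 16 stage 2 genes 14 were higher (12 of the 14 detected in 10% of cells in both sets), with a list median of 1.01 in VEH and 0.80 in LEM, which was above that of stage 1. The receptor tyrosine kinase *Axl*, which binds dying cells, stood at 3.72, 42.9 and 107 CPM in VEH and at 6.29, 46.1 and 98.4 CPM in LEM, and *Csf1*, the growth factor of microglia, at 16.7, 101 and 193 CPM in VEH and at 18.5, 87.5 and 209 CPM in LEM. The log2 ratio of *Axl* was 3.53 in VEH and 2.87 in LEM, by pool VEH female 3.55, VEH male 3.88, LEM female 2.93 and LEM male 2.98. That of *Csf1* was 2.59 in VEH and 2.24 in LEM, by pool VEH female 2.78, VEH male 2.53, LEM female 2.15 and LEM male 2.27. Both genes reached 10% of cells in the intermediate set alone, so that the direction of their ratios, in each pool as well, was largely set by the filter. Since members were chosen by counts of other late DAM genes, higher stage 2 levels go with the choice of members.

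The tetraspanins *Cd9* and *Cd63*, membrane proteins of the surface and of late endosomes, stood at 1362, 2904 and 3546 CPM in VEH and at 1756, 3005 and 3639 CPM in LEM, and at 316, 1011 and 1492 CPM in VEH and at 436, 1052 and 1603 CPM in LEM. *Ank*, which acts in the export of pyrophosphate from cells, was higher by 2.77 in VEH and 2.54 in LEM, the chemokine *Ccl6* by 1.52 in VEH and 1.5 in LEM, and *Hif1a*, the oxygen-regulated transcription factor, by 1.26 in VEH and 0.84 in LEM. *Cd52*, *Serpine2*, *Gusb*, *Ctsz*, *Ctsl*, *Cd68* and *Cadm1* were higher by 0.57 (*Cadm1*, LEM) to 1.20 (*Cd52*, VEH). Below the fold in at least 1 library were *Trem2* itself, at 0.53 in VEH and 0.39 in LEM, and the cathepsin *Ctsa*, at 0.49 in VEH and 0.41 in LEM.

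Of the 8 other DAM genes with a count in enough cells, 5 were higher (*Lgals3bp*, *Capg*, *Cox6a2*, *Cd83* and *Baiap2l2*), 2 of them measured through the intermediate set alone. *Baiap2l2*, a protein that bends membranes at actin-rich protrusions, had the largest ratio of the genes measured, by the smallest value over the 4 pools. It passed the filter through the intermediate set alone, with a count in 1.11% of VEH and 0.617% of LEM cells with a sum of 0, so its rank describes what the filter admits. It stood at 2.61, 105 and 233 CPM in VEH and at 1.47, 65.1 and 204 CPM in LEM, and its log2 ratio was 5.34 in VEH and 5.46 in LEM. *Lgals3bp*, a secreted protein that binds galectins, was higher by 1.07 in VEH and 1.06 in LEM, the actin-capping *Capg* by 1.94 in VEH and 1.98 in LEM and *Cd83*, a surface protein of activated immune cells, by 1.09 in VEH and 0.89 in LEM. *Gpr84*, *Colec12* and *Atf3* stayed under the fold in at least 1 library. *Lgals3*, which encodes galectin-3, was detected in too few cells for the count and stood at 0.455, 21.5 and 42.3 CPM in VEH and at 1.12, 27.7 and 57.9 CPM in LEM.

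Of 34 homeostatic genes 6 were lower and 0 higher, with a median log2 ratio of -0.39 in VEH and -0.37 in LEM. *Tmem119* stood at 2182, 1426 and 973 CPM in VEH and at 2212, 1563 and 1067 CPM in LEM, by pool at log2 ratios of VEH female -0.70, VEH male -0.60, LEM female -0.59 and LEM male -0.45. The lens crystallin gene *Crybb1*, long used as a microglial marker, stood at 465, 233 and 116 CPM in VEH and at 505, 289 and 131 CPM in LEM, the lowest ratio of the list at -1.0 in VEH and -0.80 in LEM. *Txnip*, an inhibitor of thioredoxin and glucose uptake, was lower, at -0.93 in VEH and -0.74 in LEM, *Ecscr* by -0.90 in VEH and -0.72 in LEM and the adhesion receptor *Adgrg1* by -0.60 in VEH and -0.57 in LEM.

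The other homeostatic genes did not pass the fold in both libraries. *Cx3cr1*, the fractalkine receptor, had a log2 ratio of -0.38 in VEH and -0.32 in LEM, the ATP receptor *P2ry13* -0.56 in VEH and -0.47 in LEM, and *Sall1*, the transcription factor that marks microglial identity, -0.40 in VEH and -0.33 in LEM. Close to 0 were *Cst3*, which encodes cystatin C (-0.019 in VEH and -0.0095 in LEM), the lectin *Siglech* (-0.040 in VEH and -0.11 in LEM) and the Fc receptor-like *Fcrls* (0.013 in VEH and -0.097 in LEM).

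Chemokine genes were among those with large ratios. Of 13 chemokine and cytokine genes measured, 7 were higher, 1 of them measured through the intermediate set alone, and 0 lower. The median was 0.62 in VEH and 0.75 in LEM. *Ccl3* and *Ccl4*, which encode ligands that draw in immune cells, were higher by 2.0 in VEH and 1.73 in LEM and by 2.09 in VEH and 1.77 in LEM. *Ccl3* stood at 298, 1189 and 1354 CPM in VEH and at 289.8, 963 and 1333 CPM in LEM, and *Ccl4* at 354, 1501 and 1843 CPM in VEH and at 341, 1161 and 1536 CPM in LEM, so intermediate cells had most of the level of the far end. *Cxcl16*, *Tnf* and *Tnfsf8* were higher by 0.62 in VEH and 0.83 in LEM, by 0.70 in VEH and 0.87 in LEM and by 1.25 in VEH and 0.75 in LEM. With the rule on thinned counts the VEH ratio of *Tnf* was -0.25. *Il1a*, the interleukin-1 alpha gene, had ratios of -0.19 in VEH and -0.36 in LEM, *Ccl2* of 0.14 in VEH and 0.32 in LEM and *Il18* of -0.30 in VEH and -0.26 in LEM, all under the fold. *Ccl3* and *Ccl4* are also on the list of genes that tissue dissociation can induce, of which they were the only 2 of 18 that were higher, with 0 lower. The median of that list was -0.28 in VEH and -0.18 in LEM, with *Fos* at -0.53 in VEH and -0.34 in LEM, *Jun* at -0.51 in VEH and -0.43 in LEM, *Junb* at -0.42 in VEH and -0.33 in LEM and *Egr1* at -0.20 in VEH and -0.080 in LEM.

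Glycolysis was the list outside the DAM genes with the largest share of higher members, 10 of 14, with a median of 0.78 in VEH and 0.74 in LEM. *Tpi1*, *Pkm*, *Gapdh*, *Pgk1* and *Ldha*, enzymes of the pathway from triose phosphates to lactate, had log2 ratios of 1.32, 1.10, 1.08, 0.99 and 0.92 in VEH and 1.20, 0.99, 0.95, 0.98 and 0.90 in LEM. The lactate exporter *Slc16a3* was higher by 1.26 in VEH and 1.20 in LEM. The first enzyme, hexokinase 2 (*Hk2*), had ratios of -0.094 in VEH and -0.092 in LEM. Of 28 oxidative phosphorylation genes 1 was higher (*Ndufa1*, 0.84 in VEH and 0.81 in LEM), and of 30 cytosolic ribosomal protein genes 3 were (*Rpl32*, *Rps19* and *Rpsa*), although the median of the ribosomal list, 0.50 in VEH and 0.41 in LEM, lay above that of all genes.

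Of 38 lysosome genes 8 were higher and 0 lower, with a median of 0.35 in VEH and 0.30 in LEM. Apart from those of the stage lists, *Npc2*, which binds cholesterol in the lysosome, was higher by 0.62 in VEH and 0.59 in LEM. Abundant members such as *Ctss* and *Psap* had ratios of 0.18 in VEH and 0.15 in LEM and 0.22 in VEH and 0.21 in LEM. In lipid handling 4 of 11 genes were higher, 2 of them measured through the intermediate set alone, and 0 lower. They included *Plin2*, the coat protein of lipid droplets, at 0.97 in VEH and 0.81 in LEM, and *Nceh1*, which hydrolyses cholesteryl esters, at 1.95 in VEH and 1.66 in LEM. The cholesterol exporter *Abca1* had ratios of -0.37 in VEH and -0.35 in LEM.

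In the TREM2 pathway 2 of 18 genes were higher, *Tyrobp* and the adaptor *Lat2* (0.57 in VEH and 0.52 in LEM), and 0 lower. The ratio of the kinase *Syk* was -0.41 in VEH and -0.37 in LEM, the phosphatase *Inpp5d* of -0.25 in VEH and -0.26 in LEM and the phospholipase *Plcg2* of -0.17 in VEH and -0.21 in LEM. Of 29 transcription factors *Hif1a* was higher and the retinoid X receptor *Rxra* lower (-0.51 in VEH and -0.71 in LEM). Factors of macrophage and microglial identity did not pass the fold in both libraries, with *Maf* at -0.51 in VEH and -0.47 in LEM, *Mef2a* at -0.46 in VEH and -0.40 in LEM, *Spi1* at -0.18 in VEH and -0.10 in LEM and *Irf8* at 0.17 in VEH and 0.064 in LEM. Of 14 MHC class I genes the heavy chains *H2-D1* (0.74 in VEH and 0.74 in LEM) and *H2-K1* (0.51 in VEH and 0.73 in LEM) and *B2m* were higher. These heavy chains are close copies of each other, so that reads could be split between them.

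Of 12 interferon response genes 5 were higher, 3 of them measured through the intermediate set alone, and 0 lower. *Ifi27l2a*, *Ifitm3* and *Bst2*, the last 2 membrane proteins that restrict viruses, were higher by 1.52 in VEH and 1.69 in LEM, 1.40 in VEH and 1.38 in LEM and 0.70 in VEH and 0.78 in LEM. After thinning to 2000 counts, at least 5 counts of the interferon list stood in 7.89% of VEH cells with a sum of 0, 15.7% of VEH intermediate cells (11.9 to 20.0) and 25.6% of VEH cells with a sum of 10 or more. In LEM these shares were 18.3%, 28.4% (24.8 to 32.2) and 38.7%. The LEM share was the higher one in every set. Single genes did not all go this way. Within intermediate cells 2 of the 12 genes were higher in LEM, *Ly6e* and *Ifi27l2a*, and the median LEM over VEH ratio of the 12 was 0.67 in female and -0.33 in male cells. *Ly6e*, which alone stood at 486, 574 and 589 CPM in VEH and at 959.6, 1105 and 1126 CPM in LEM, adds many of the counts in the shares, and its part in them was not tested.

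Among all genes measured, those with the highest ratios in all 4 pools after *Baiap2l2*, all but *Ank* passing the filter through the intermediate set alone, were *Actr3b*, *Etl4*, *Axl*, *Gm15155*, *Gm15156*, *Xylt1*, *Ank*, *Rai14* and *Gm13391*. *Actr3b*, a subunit of the actin-branching Arp2/3 complex, stood at 0.717, 14.1 and 26.4 CPM in VEH and at 0.803, 12.4 and 32.3 CPM in LEM, *Etl4* at 6.53, 77.8 and 182 CPM in VEH and at 5.88, 72.7 and 217 CPM in LEM, and *Xylt1*, which starts the sugar chains of proteoglycans, at 3.55, 28.5 and 51.7 CPM in VEH and at 2.95, 25.9 and 60.6 CPM in LEM. *Gm13391* was the one of these with a VEH level above that of the far end, at 2.0, 16.1 and 10.9 CPM in VEH and at 2.13, 11.1 and 11.6 CPM in LEM. The lowest were *Hlf*, *Rasgrp4*, *Ctnnd2*, *Nhs*, *Siglece*, *Col6a3*, *Trp53cor1*, *Gpr165*, *Dok3* and *Crybb1*. The circadian output factor *Hlf* stood at 29.1, 9.72 and 6.96 CPM in VEH and at 25.7, 10.8 and 4.66 CPM in LEM, and the inhibitory lectin *Siglece* at 61.4, 32.9 and 17.4 CPM in VEH and at 63.5, 33.6 and 15.7 CPM in LEM.

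*Apoe* climbed along the sum within the intermediate range. It stood at 1745 CPM in VEH cells with a sum of 2, at 1807 CPM with 3, at 2453 CPM with 4 and at 3364 CPM with 5 to 7, and at 2524, 2745, 4115 and 4412 CPM in LEM. *Crybb1* went the other way, at 328, 186 and 160.3 CPM in VEH and 331, 282 and 232 CPM in LEM. *Csf1* had no steady order, with 53.2, 182 and 102 CPM in VEH and 71.5, 62.5 and 128 CPM in LEM. *Igf1*, the insulin-like growth factor gene, stood at 9.85 CPM with a sum of 5 to 7 and 65.4 CPM with 10 to 19 in VEH, and at 20.4 CPM and 48.5 CPM in LEM.

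**Figure D2:**
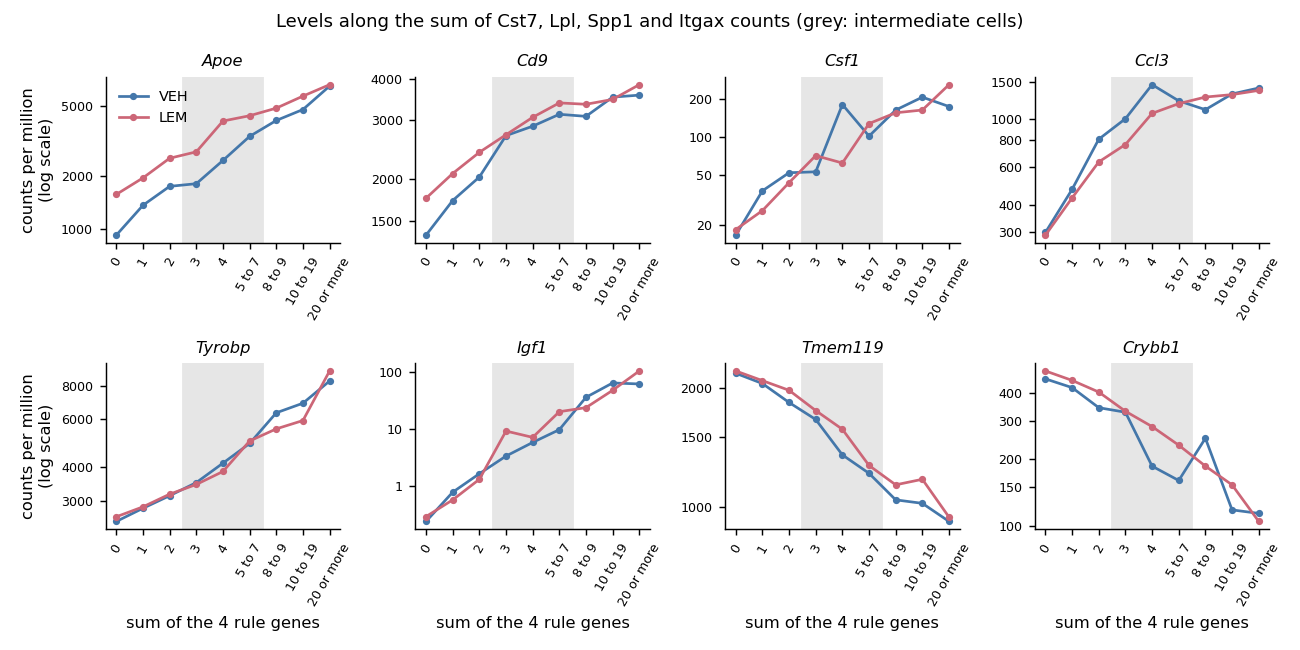
Level in CPM on a log scale (y axis) of 8 genes in cells grouped by the sum of the 4 rule genes (x axis), in VEH (blue) and LEM (red), with the intermediate steps in grey. *Apoe*, *Cd9*, *Ccl3* and *Tyrobp* are already above the level of cells with a sum of 0 at a sum of 1, *Igf1* goes from 0.239 and 0.291 CPM at a sum of 0 to 62.8 and 106 CPM at 20 or more, and *Tmem119* and *Crybb1* go down.

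To say how far intermediate cells had gone, each gene was given a place, its log2 ratio of intermediate cells over cells with a sum of 0 divided by that of cells with a sum of 10 or more over cells with a sum of 0. A place of 0 is the level of the first set and 1 that of the last. Over the 563 genes that were higher at the far end by a log2 ratio of at least 0.5 in both libraries, the median place was 0.57 in VEH and 0.51 in LEM, and over 1460 lower genes it was 0.44 and 0.39. Stage 1 genes had a median of 0.56 and 0.60 and stage 2 genes of 0.68 and 0.58. As a mean of both libraries this was 0.58 (SD over the 4 pools 0.062) for stage 1 and 0.63 (SD 0.077) for stage 2, and the difference between the stages was smaller than the spread of the pools. Without the Scrublet doublets the places were 0.60 for stage 1, 0.66 for stage 2 and 0.50 for homeostatic genes.

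Homeostatic genes had gone about as far down as all falling genes, with a median place of 0.52 in VEH and 0.45 in LEM over 21 genes, or 0.48 (SD over the 4 pools 0.068) as a mean of libraries. Chemokines stood at 0.73 and 0.69 over 7 genes, interferon genes at 0.85 and 0.69 over 3 genes, and the dissociation list at 0.88 and 0.79 over 3 genes, of which *Ccl3* and *Ccl4* are also chemokines. Glycolysis stood at 0.63 and 0.52 over 11 genes, lysosome at 0.61 and 0.56 over 21 genes and ribosomal proteins at 0.51 and 0.49 over 30 genes. Among single genes *Cd83* had a place of 0.94 in VEH and 1.0 in LEM, *Ccl3* of 0.91 in VEH and 0.79 in LEM, *Ccl4* of 0.88 in VEH and 0.81 in LEM and *Cadm1* of 0.94 in VEH and 0.71 in LEM. *Tyrobp* was below the middle at 0.46 in VEH and 0.41 in LEM. With the rule applied to cells thinned to 2000 counts the places were 0.78 for stage 1, 0.79 for stage 2 and 0.75 for homeostatic genes, above those given first in each list.

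**Figure D3:**
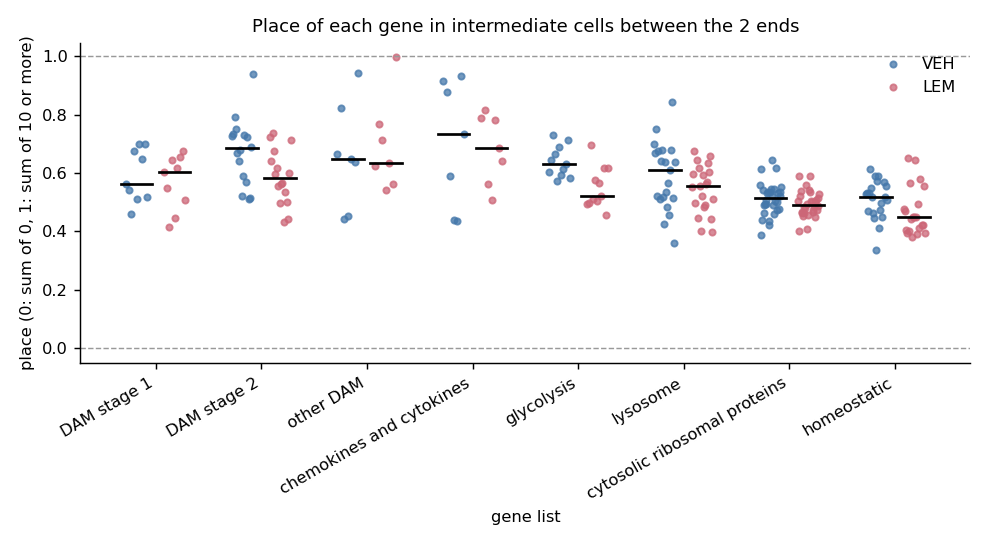
Place of each gene (y axis, 0 for the level in cells with a sum of 0 and 1 for that in cells with a sum of 10 or more) by gene list (x axis), in VEH (blue) and LEM (red), with the list median as a bar. Genes that are higher at the far end are drawn, and for the homeostatic list also those that are lower. Medians of stage 1 (0.56 and 0.60) and stage 2 (0.68 and 0.58) lie side by side and those of chemokines (0.73 and 0.69) above both.

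Some DAM genes stood far below the level of the far end. Of 8934 genes, 186 (2.08%) were higher and 393 (4.4%) lower in cells with a sum of 10 or more than in intermediate cells, and 175 and 482 without the Scrublet doublets. A gene detected in 10% of the far end alone was measured because it is high there, so that the direction of its call was largely set by the filter. This holds for 56 of the 186. In the same way 57 of the 393 lower genes were detected in 10% of intermediate cells alone. Of the DAM lists, 5 of 9 stage 1, 7 of 16 stage 2 and 12 of 16 other DAM genes were higher (8 of those 12 measured through the far end alone, among them *Igf1*, and 4 of 8 among the genes detected in intermediate cells as well), and 8 of 34 homeostatic genes were lower. *Igf1* stood at 0.239, 6.37 and 64.2 CPM in VEH and at 0.291, 12.4 and 75.1 CPM in LEM, a log2 ratio of the far end over intermediate cells of 3.33 in VEH and 2.60 in LEM. *Ch25h*, which makes 25-hydroxycholesterol, stood at 0.194, 4.02 and 72.1 CPM in VEH and at 0.291, 5.74 and 47.7 CPM in LEM, with a ratio of 4.16 in VEH and 3.06 in LEM. *Gpnmb*, a glycoprotein of stressed lysosomes, had 0 counts in intermediate cells of both libraries, which allows up to 1.01 CPM in VEH and 0.522 CPM in LEM, and stood at 15.4 and 4.95 CPM at the far end. Those counts came from few cells, 0.552% of VEH and 0.671% of LEM cells with a sum of 10 or more. All 31 VEH counts lay in cells with a sum of 20 or more and all 17 LEM counts in cells with 10 to 19, so the level is not one of the far end as a whole.

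Over all genes measured the highest ratios in all 4 pools, of which all but that of *Gm1673* belong to genes that passed the filter through the far end alone, were those of *Igf1*, *Bhlhe40*, *Dcstamp*, *Lgi2*, *Fabp5*, *Lilrb4a*, *Gm1673*, *Fabp3*, *Cxcl14* and *Bcar3*. The fatty acid binding protein *Fabp5* stood at 1.31, 24.1 and 75.6 CPM in VEH and at 2.52, 15.7 and 63.8 CPM in LEM, the inhibitory receptor *Lilrb4a* at 1.56, 20.5 and 86.5 CPM in VEH and at 1.6, 21.9 and 71.3 CPM in LEM and the transcription factor *Bhlhe40* at 0.262, 6.37 and 37.8 CPM in VEH and at 0.0970, 5.57 and 28.5 CPM in LEM. The lowest were *Calhm6*, *Gm15444*, *Bank1*, *Ggta1*, *Gm13710*, *Gpr165*, *Clec4a2*, *Siglece*, *Chst8* and *Cacnb2*. The lectin *Clec4a2* stood at 107, 63.0 and 21.9 CPM in VEH and at 108, 63.0 and 25.6 CPM in LEM. *Calhm6* and *Gm13710* were about as high in intermediate cells as in cells with a sum of 0 and lower at the far end, at 17.1, 19.1 and 7.96 CPM in VEH and at 15.7, 18.1 and 7.28 CPM in LEM for *Calhm6* and 20.4, 26.5 and 9.45 CPM in VEH and at 22.9, 29.7 and 10.5 CPM in LEM for *Gm13710*.

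Of 8499 genes measured in both comparisons, 1 (0.0118%) was higher in intermediate cells than in both other sets by the fold in both libraries, *Nemp1*, which encodes a protein of the inner nuclear membrane, at 10.00, 15.8 and 10.9 CPM in VEH and at 9.69, 14.8 and 8.44 CPM in LEM. It was named after its values were seen and rests on 47 VEH and 85 LEM counts in intermediate cells and 22 and 29 at the far end. Its ratio of the far end over intermediate cells was -0.53 in VEH, with an interval that spans 0 (-1.33 to 0.23), and -0.81 (-1.47 to -0.19) in LEM. None (0%) was lower than in both. *Ccl5*, detected in too few cells for the count, had its highest level in intermediate cells, at 0.649, 6.37 and 0.995 CPM in VEH and at 3.21, 36.9 and 4.66 CPM in LEM, with a count in 2.33% of VEH and 3.88% of LEM intermediate cells. Its VEH level at the far end rests on fewer than 3 counts, and its levels in intermediate cells rest on few cells.

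The next question was whether the middle level is a mean of 2 kinds of cell or a level that single cells have. After thinning each cell to 2000 counts, 332 VEH and 606 LEM intermediate cells remained. The 16 stage 2 genes summed to a median of 19 counts in VEH cells with a sum of 0, 36 in intermediate cells and 49 in cells with a sum of 10 or more, and to 21, 34 and 51 in LEM. The middle 50% of intermediate cells lay between 25 and 47.25 counts in VEH and between 26 and 44 in LEM. Of them 57.8% in VEH and 47.2% in LEM were above the 95th percentile of cells with a sum of 0, and 22.6% and 15.5% reached the median of the far end. At or below the median of cells with a sum of 0 lay 10.8% and 15.3%. The values of single intermediate cells were spread over the ranges of both ends, with their bulk between the 2 medians, and no shape was tested. Doublets were kept in these values, and Scrublet had called 13.1% of VEH and 15% of LEM intermediate cells so. Their part in the middle values was not tested.

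**Figure D4:**
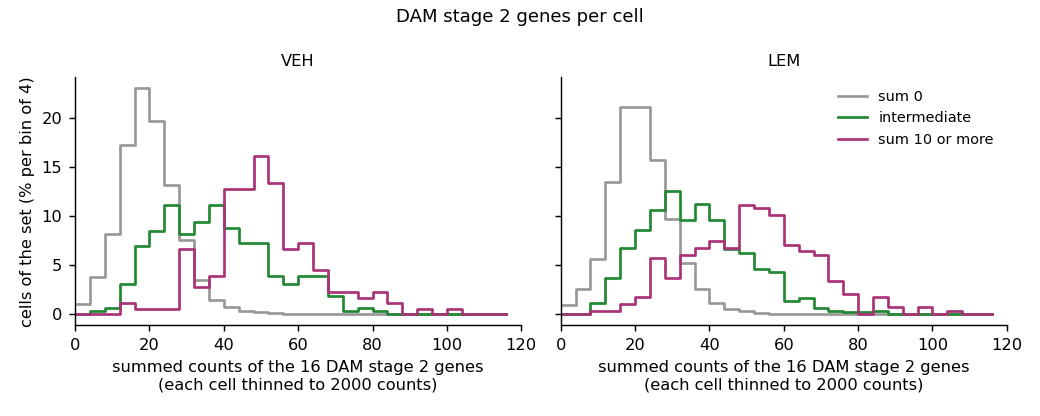
Percent of the cells of a set per bin of 4 counts (y axis) by the summed counts of the 16 stage 2 genes in a cell thinned to 2000 counts (x axis), in VEH and LEM, for cells with a sum of 0 (grey), intermediate cells (green) and cells with a sum of 10 or more (purple). The green curves, with medians of 36 and 34, lie between grey (19 and 21) and purple (49 and 51) and overlap both.

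The 9 stage 1 genes gave a like order, with medians of 33, 59 and 93 counts in VEH and 37, 61 and 98 in LEM, and 9.34% and 13% of intermediate cells at or below the median of cells with a sum of 0. The 34 homeostatic genes had medians of 253, 229 and 205.5 counts in VEH and 236, 218 and 205 in LEM, a small step beside the spread of single cells, whose SD in intermediate cells was 64.4 and 52.8 counts. A count of *Axl* or *Csf1* stood in 3.48%, 19.9% and 35.0% of cells of the 3 sets in VEH and in 4.16%, 20.0% and 38.0% in LEM. At this thinned depth a cell without a count may still express either gene.

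Members differed among themselves by which rule gene had brought them in. *Cst7* without *Itgax* was found in 155 VEH (45.2%) and 208 LEM members (33.7%), *Itgax* without *Cst7* in 49 (14.3%) and 154 (24.9%), both in 116 and 204 and neither in 23 and 52. Members with *Itgax* alone of the pair were set beside those with *Cst7* alone, and of 8499 genes 170 (2%) were higher and 96 (1.13%) lower in both libraries, from 49 VEH cells with few counts per gene. Scrublet called 8.16% of VEH and 20.1% of LEM cells with *Itgax* alone doublets, against 13.5% and 9.62% of those with *Cst7* alone. The part of doublets in these differences was not tested.

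Members with *Itgax* alone held less *Baiap2l2* and *Lyz2* and more *Il1a* and *Klf2*. The log2 ratio of *Itgax* alone over *Cst7* alone was -1.43 in VEH and -2.54 in LEM for *Baiap2l2*, -0.67 in VEH and -0.83 in LEM for *Lyz2*, -0.41 in VEH and -0.33 in LEM for *Cd63* and -0.24 in VEH and -0.35 in LEM for *Ctsd*. It was -0.82 in VEH and -0.99 in LEM for *Ramp1*, a receptor partner for the neuropeptide CGRP, and -1.02 in VEH and -0.69 in LEM for the cytokine receptor *Crlf2*. *Il1a* had a ratio of 0.96 in VEH and 0.65 in LEM, the shear-responsive transcription factor *Klf2* of 0.63 in VEH and 0.82 in LEM, *Serpinf1* of 1.44 in VEH and 0.77 in LEM and the crosslinking enzyme *Tgm2* of 0.97 in VEH and 1.36 in LEM. DAM genes did not all go 1 way. The stage 2 genes *Cadm1* and *Csf1* had ratios above 0, of 0.61 in VEH and 0.20 in LEM and of 0.66 in VEH and 0.13 (-0.21 to 0.48) in LEM. Homeostatic genes did not all go 1 way either. *Crybb1* had ratios of 0.74 in VEH and 0.42 in LEM and *Tmem119* of 0.21 in VEH and 0.24 in LEM. *Siglech* had ratios of -0.28 in VEH and -0.11 in LEM, *Fcrls* of -0.21 and -0.20, and *Cst3* of -0.15 and -0.13. The DAM and homeostatic lists were not tallied for this comparison. *Apoe* went opposite ways in the libraries, at 0.40 in VEH and -0.70 in LEM, and *Cd9* hardly differed, at 0.0084 in VEH and -0.14 in LEM. *Ramp1*, *Crlf2*, *Serpinf1* and *Tgm2* were picked after their values were seen.

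Counts of cell cycle genes were found in few members. At least 3 counts of G2/M genes in thinned cells stood in 0.599% of VEH cells with a sum of 0, in 9 of 332 intermediate cells (2.71%, 1.25 to 5.08) and in 6 of 180 cells with a sum of 10 or more (3.33%, 1.23 to 7.11). In LEM the shares were 0.584%, 18 of 606 (2.97%, 1.77 to 4.65) and 12 of 297 (4.04%, 2.10 to 6.95). For G2/M the interval of intermediate cells lay above the share in cells with a sum of 0 in both libraries. For S phase genes the shares were 2.53%, 5.12% (3.01 to 8.07) and 5.0% in VEH and 2.89%, 3.47% (2.16 to 5.25) and 6.06% in LEM, where the interval of intermediate cells contains the share at a sum of 0. In the comparison of summed counts 0 of 8 S phase genes passed the fold in either direction, and 0 of 19 G2/M genes were detected in enough cells to be measured. No cycling is read from these calls alone.

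Within intermediate cells LEM and VEH differed in single genes of the DAM lists and of other kinds. The members of the 2 libraries were not made up alike, with *Itgax* without *Cst7* in 14.3% of VEH and 24.9% of LEM members. The part of this in the differences was not tested. A gene was counted when its log2 ratio of LEM over VEH was at least 0.5 in size over all intermediate cells, with the same direction in female and in male cells. Of 8499 genes 181 (2.13%) were higher and 143 (1.68%) lower in LEM, 324 in all, and without the Scrublet doublets 406. Of the 181 higher genes 26 (14.4%) and of the 143 lower genes 30 (21%) also passed the fold in the same direction in cells with a sum of 0, where 63 (0.741%) and 53 (0.624%) of all 8499 genes did. Below or past the fold, 150 and 113 of them had the same direction there, as did 4690 (55.2%) and 3809 (44.8%) of all genes. Of the DAM lists 0 of 9 stage 1 genes, 2 of 16 stage 2 genes (*Ccl6* and *Ank*, lower) and 3 of 8 other DAM genes (*Colec12* higher, *Baiap2l2* and *Capg* lower) were past the fold. *Colec12*, a scavenger receptor, had a ratio of 0.72 (0.81 in female and 0.11 in male cells). Of 34 homeostatic genes *Gp9* and *Slc1a3* were lower. The median log2 ratio was -0.005 over stage 1, -0.065 over stage 2 and 0.023 over homeostatic genes.

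For *Apoe* the LEM over VEH ratio was 0.77 (0.76 to 0.78) in cells with a sum of 0, 0.49 (0.45 to 0.53) in intermediate cells (0.18 in female and 0.68 in male cells) and 0.14 (0.10 to 0.17) in cells with a sum of 10 or more. Of the 25 stage genes 24 had a larger LEM over VEH ratio in cells with a sum of 0 than in intermediate cells, as did 4127 of all 8499 genes (48.6%). Members of both libraries were held to the same range of late DAM counts, so the ratios of stage genes among them depend on the choice of members. How much of the difference between the sets goes with that choice was not tested. The list medians in cells with a sum of 0 were 0.068 for stage 1 and 0.083 for stage 2, against -0.005 and -0.065 in intermediate cells, and over all genes they were 0.011 and 0.017. The genes named here were picked after their values were seen. The ratio of *Cd9* was 0.37 (0.36 to 0.38) in the first and 0.049 (0.012 to 0.087) in the second, that of *Cd63* 0.46 (0.44 to 0.48) and 0.057 (-0.0059 to 0.12), that of *Lyz2* 0.38 (0.35 to 0.41) and -0.0013 (-0.072 to 0.069), and that of *Axl* 0.76 (0.57 to 0.95) and 0.10 (-0.21 to 0.42). The intervals of the 2 sets lay apart for these 5 genes, which were picked, for 19 of the 25 stage genes (76%), and for 521 of all 8499 genes (6.13%), with no matching for level. They cover counting error and not the difference between pools of mice. In cells with a sum of 10 or more the median LEM over VEH ratio was 0.0085 over stage 1, -0.023 over stage 2 and 0.040 over all genes. Stage medians near 0 were thus not particular to intermediate cells.

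Other genes differed between the libraries in the same direction in both sets. *Ccl6* was lower in LEM, at -0.81 in intermediate cells (-0.71 in female and -1.30 in male cells) and had a ratio of -0.80 in cells with a sum of 0. *Capg* was lower, at -0.86 (-1.25 in female and -0.58 in male cells), with -0.90 in cells with a sum of 0, and *Ank* by -0.61, with -0.38. *Gapdh* was higher by 1.08 (1.45 in female and 0.66 in male cells), with 1.21, while the neighbouring enzymes *Tpi1* and *Pgk1* had ratios of -0.040 and -0.051. *Gapdh* has many processed copies in the genome, among which reads could be split. *Ly6e* was higher by 0.94, with 0.98, and *Baiap2l2* was lower, at -0.69, with -0.82.

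**Figure D5:**
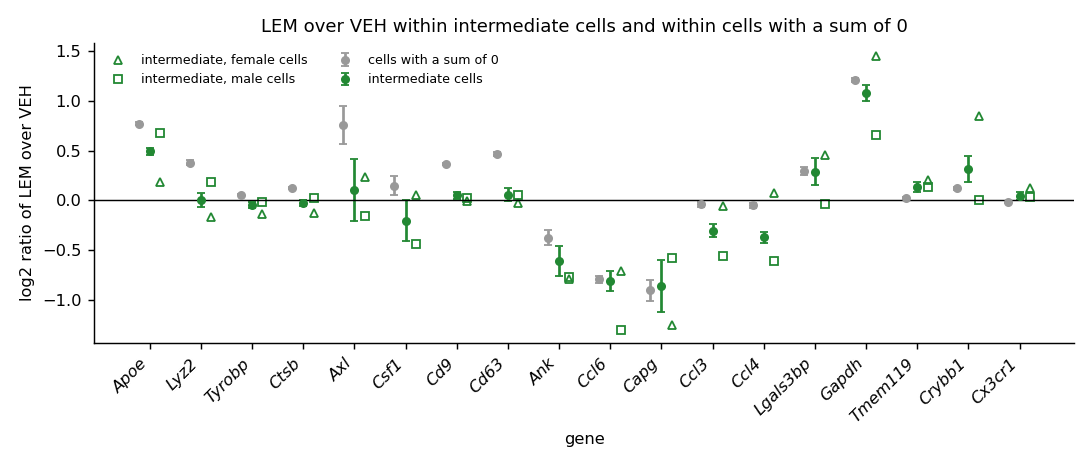
Log2 ratio of LEM over VEH (y axis) of 18 genes (x axis) in cells with a sum of 0 (grey) and in intermediate cells (green), with 95% intervals for counting error, and in female (triangles) and male (squares) intermediate cells. *Ccl6* and *Capg* lie below 0 and *Gapdh* above 0 in both sets, while *Cd9*, *Cd63* and *Lyz2* lie near 0 in intermediate cells only.

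Among all genes, the highest LEM over VEH ratios by the smaller of the 2 sexes were those of *Pira2*, *H6pd*, *Gm17231*, *Serpinf1*, *Sfxn2*, *Zbtb25*, *Gm9750*, *Gm13849*, *Tspan32* and *Cdk5rap1*. Over all intermediate cells, which include those not assigned a sex, some of these were lower than in either sex, with *H6pd* at 0.79 against 1.49 in the smaller sex, *Gm17231* at 0.51 against 1.43 and *Gm13849* at 0.66 against 1.16. The direction of each of these 3 turned under at least 1 alternative. *Pira2*, an activating leukocyte receptor, had a ratio of 2.07 in intermediate cells and 1.64 in cells with a sum of 0, *Cdk5rap1* of 1.14 and 1.45, and *Serpinf1* of 1.15 and 0.46. The lowest were *Gm42047*, *Mpp7*, *Cfap77*, *Pianp*, *Tubb2b*, *Hist1h2ao*, *Tubb2a*, *Slc37a3*, *Ints13* and *Khdrbs3*. *Cfap77* had ratios of -1.90 and -1.88, *Pianp* of -2.14 and -2.06, and *Khdrbs3* of -1.40 and -1.22. The tubulin genes *Tubb2a* and *Tubb2b* are near-identical copies, so their values are uncertain. *Gm42047* was lower in LEM intermediate cells, at -1.46, with -0.14 in cells with a sum of 0, but its direction turned under 3 alternatives.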

How the data were processed

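Counts per gene and cell of 42766 sorted cells were used as the authors deposited them, in 2 libraries, VEH (18374 cells, 116229678 counts) and LEM (24392 cells, 160752298 counts). Libraries of the 5′ ends of transcripts were made with the 10x system, and the submitters' processing notes name Cell Ranger 8.0.0. The study filtered cells on genes, counts and mitochondrial share before deposit, and an upper limit on counts can remove deep cells. It names SoupX, a correction of free RNA. All deposited values were whole numbers, and whether the correction is in them cannot be told. Cells carry numbers in place of barcodes, so barcodes shared between libraries could not be counted. Genes not in the table, such as *Clec7a*, were not analysed here.

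Counts were summed over the cells of a set and library and scaled to CPM by the set's total. Log2 ratios have exact conditional Poisson intervals and shares exact Clopper-Pearson intervals, at 95%, for counting error only. No ratio is given where both sets hold at most 3 counts. Cells were sexed by *Xist* against *Ddx3y*, *Eif2s3y*, *Kdm5d* and *Uty*, and those with both or none were left out of the sexes. Thinning drew 2000 counts from each cell without replacement and left out 1305 VEH and 1215 LEM shallower cells. Doublets were kept, and each library was passed through Scrublet in scanpy 1.11.5, with an expected rate of 0.1. The ratio step was tested on simulated data. Gene positions are from the GENCODE annotation of GRCm38, the build also called mm10.

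The members and all gene lists were chosen with earlier results of these data known. Named genes are those of the lists, and the 10 highest and 10 lowest of each comparison by the value nearest to 0 over the 4 pools (for LEM over VEH, the 2 sexes) among genes with 1 direction in all. Genes named by other means are said to be so. Values of a few list members are not reported here, though counts over their lists include them. Alternatives changed the scaling, the weight of cells, their depth, detection, doublets, the rule's genes and limits, and the sexes. Python 3.11.15, numpy 2.4.6, scipy 1.17.1 and matplotlib 3.10.9 were used.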

Additional observations from a re-analysis of the deposited data

Results flagged for a closer look

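Within intermediate cells, 12 of 225 genes screened (5.33%) had LEM over VEH ratios of opposite sign in female and male cells, with both counting intervals off 0. The screen took some of the lists and the highest and lowest genes of each comparison. Those of LEM over VEH had been chosen for 1 direction in both sexes, so they could not be among the 12. Over all 8499 genes measured the share was 1.05% (89 genes). The intervals are narrower for genes with more counts, and the shares were not matched for level. Each sex is 1 pool per library, and the difference between the sexes was not tested. The largest gaps were those of cytokine and interferon genes. The log2 ratio of *Tnf* was 0.94 (0.45 to 1.45) among female and -1.16 (-1.59 to -0.73) among male cells, and that of *Ifi44* was 1.12 (0.52 to 1.76) among female and -1.06 (-1.68 to -0.43) among male cells.

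Among DAM genes, *Cox6a2* had ratios of -0.61 (-1.0 to -0.21) among female and 0.51 (0.042 to 0.99) among male cells, *Gusb* of -0.23 (-0.39 to -0.074) among female and 0.17 (0.0017 to 0.34) among male cells, *Lyz2* of -0.17 (-0.28 to -0.059) among female and 0.18 (0.060 to 0.30) among male cells and *Fth1* of 0.14 (0.085 to 0.20) among female and -0.12 (-0.18 to -0.059) among male cells. Among homeostatic genes, *Hpgd* stood at -0.68 (-0.87 to -0.48) among female and 0.31 (0.085 to 0.54) among male cells, *Ecscr* at -0.49 (-0.82 to -0.15) among female and 0.39 (0.063 to 0.72) among male cells, *Fcrls* at -0.11 (-0.20 to -0.012) among female and 0.61 (0.51 to 0.72) among male cells and *Jun* at 0.093 (0.021 to 0.17) among female and -0.17 (-0.23 to -0.10) among male cells. Of lysosome genes, *Atp6v0c* had ratios of 0.36 (0.23 to 0.48) among female and -0.31 (-0.43 to -0.20) among male cells and *Npc2* of -0.12 (-0.22 to -0.018) among female and 0.13 (0.023 to 0.24) among male cells. The LEM over VEH ratio over all intermediate cells of *Lyz2* was -0.0013, between the 2 opposite values.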

How the results depend on the processing

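The log2 ratio of the share of intermediate cells, LEM over VEH, was 0.080 with the rule on thinned counts and 0.21 without *Itgax*. It stayed within the interval of 0.25 to 0.64 under the other alternatives, of which the limit to cells of 4000 to 8000 counts (0.35) and the lifted MHC class II limit were chosen after seeing the data. Counts of genes past the fold moved under several alternatives. Against cells with a sum of 0 (409 genes) the count was 1162 with detection in 1% of cells, 1170 with thinned counts (391 higher, 779 lower), 900 with the sum scaled to 6000 counts (412 higher, 488 lower), 719 without *Cst7*, 622 without *Itgax* and 658 with a sum of 4 to 6. With each cell weighted equally it was 611 (295 higher, 316 lower), where the main result had 246 higher and 163 lower. For the far end (579 genes) it was 1153 in cells of 4000 to 8000 counts and 1269 with detection in 1%. For LEM over VEH (324 genes) it was 1128 in cells of 4000 to 8000 counts, 1020 with detection in 1%, 637 with scaled sums, 626 without *Cst7*, 735 with a sum of 4 to 6, and 1322 in female and 1223 in male cells alone, where the second sex no longer filters.

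Median places were higher under several rules. Stage 1 was at 0.66 with cells weighted equally. The values for stage 1, stage 2 and homeostatic genes were 0.78, 0.79 and 0.75 with thinned counts, 0.70, 0.73 and 0.56 with scaled sums, and 0.75, 0.73 and 0.58 without *Cst7*. Stage 1 and homeostatic genes were at 0.65 and 0.56 without *Itgax* and at 0.69 and 0.60 with a sum of 4 to 6. The causes were not tested. Leaving out the 20 most abundant genes from the scaling moved the median of all genes by less than 0.01 on the log2 scale.

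Turns of direction were looked for only in ratios past the fold in the main results. Sign changes of the remaining ratios among these values are not in the counts. The sizes of ratios moved as well. Against cells with a sum of 0, 11 of 142 ratios of a gene in a library stayed within their main interval with thinned counts. With scaled sums 24 did. Of 2130 values of named genes against cells with a sum of 0, *Tnf* in VEH was the 1 counted turn, to -0.25 with thinned counts. Of 360 for LEM over VEH, *Gm42047* turned 3 times, to 0.33 in cells of 4000 to 8000 counts, 0.11 with thinned counts and 0.061 without *Cst7*. So did *H6pd*, *Gm17231* and *Gm13849* with thinned counts (-1.37, -0.52 and -0.11), *Gm17231* without *Itgax* (-0.39) and with a sum of 4 to 6 (-0.15), and *Gm13849* with a sum of 4 to 6 (-0.010). Of 59 for the far end, which come from only 4 ratios of a gene in a library, 0 turned. The remaining genes named for the far end were not part of this. No paired analysis was possible because each treatment is 1 library and the labels give no shared replicate numbers.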

Other observations

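Ribosomal protein genes moved as a block of small steps. Over 30 cytosolic ribosomal protein genes the median log2 ratio of intermediate cells over cells with a sum of 0 was 0.50 in VEH and 0.41 in LEM, and that of the far end over intermediate cells 0.47 in VEH and 0.44 in LEM. *Rpl32* stood at 664, 1049 and 1563 CPM in VEH and at 770.0, 1147 and 1570.2 CPM in LEM, in the order of a sum of 0, intermediate cells and a sum of 10 or more, and *Rpsa* at 523, 801 and 1134 CPM in VEH and at 565, 842 and 1204 CPM in LEM. Over 28 oxidative phosphorylation genes the corresponding medians were 0.21 in VEH and 0.21 in LEM, and 0.21 in VEH and 0.21 in LEM.

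Cells that met the sum of 3 to 7 but were removed by MHC class II counts were 86 in VEH and 79 in LEM, and at a sum of 10 or more such cells were 274 of 460 in VEH (59.6%) and 296 of 609 in LEM (48.6%). The cells with a sum of 10 or more described here are those with few MHC class II counts.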
